A study of Mus musculus with 8 samples.

Results

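The genes described here encode integrins and the proteins that leukocytes use to adhere. They were taken as a list of 33 gene symbols: 13 integrin alpha chains, 5 integrin beta chains, 7 other adhesion proteins and 8 proteins that act on integrins from inside the cell. All 33 were among the 48321 symbols of the count tables, and 26 of them passed the filter on low counts that left 12597 genes for testing. RNA was sequenced from splenic CD8+ T cells of C57BL/6 mice in 8 libraries. The libraries were labelled WT or KO and Day_0 or Day_5, with 2 libraries in each of the 4 groups. The series names the mice as Satb1 F/F; E8I-cre, that is, floxed *Satb1* alleles with a Cre transgene that is active in mature CD8 lineage cells. Which of these alleles the WT mice carried, and the age of any mice, are not given in the sources used here. Day 5 cells were cultured, and the series title calls the cells stimulated *in vitro*. The stimulus for these libraries is not given in the sources used here. Nothing in the labels says that the 2 libraries of a group came from separate mice, so p-values measure the spread between these libraries, which may be technical.

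Integrins are cell surface receptors made of an alpha and a beta chain. The pairing sets the ligand: αL with β2 forms LFA-1, which binds ICAMs on other cells, α4 with β1 forms VLA-4, which binds VCAM-1 and fibronectin, α4 with β7 binds MAdCAM-1 of gut vessels, and αE with β7 binds E-cadherin on epithelium. On resting T cells most integrins are held in a bent, weakly binding form. Signals from the T-cell receptor or from chemokine receptors load the small GTPase Rap1, which brings talin and kindlin to the beta chain tail and extends the receptor.

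Total counts ranged from 4170126 to 11117971 per library. *Cd8a* was between 734 and 1455 CPM (the usual depth-scaled unit, a gene's counts over the library total scaled by a TMM factor) in the 8 libraries, and *Cd4* was at or below 0.964 CPM. The 3 CD4 lineage markers, *Cd4*, *Zbtb7b* and *Cd40lg*, summed to 1.36 and 3.58 CPM in WT at day 0. They summed to 6.06 and 6.26 CPM in the KO-labelled libraries, with *Cd40lg* at 5.66 and 3.85 CPM against 1.61 and 1.13 CPM in WT. At day 5 the sums were 2.65 to 3.22 CPM. The targeted gene went against the label at day 0. *Satb1* was at 97.8 and 91.6 CPM in WT and at 144 and 125 CPM in the KO-labelled libraries (log2 fold change 0.51, SE 0.15, edgeR quasi-likelihood test, Benjamini-Hochberg adjusted p, here FDR, 0.125). At day 5 it was at 96.5 and 116 CPM in WT and at 56.5 and 62.3 CPM in the KO-labelled libraries (log2 fold change −0.84, SE 0.15, FDR 0.0162, with the call lost without replicate 2 of WT or replicate 1 or 2 of KO at day 5, highest FDR 0.174). Which exons the floxed alleles remove is not given in the sources used here, and reads from exons outside them would still be counted. The KO groups are therefore named by their label only. The summed level of 7 T-cell markers fell from between 10403 and 11648 CPM at day 0 to between 6640 and 7406 CPM at day 5. The 7 did not move alike. Mean *Cd8b1* went from 3860 to 1239 CPM in WT and from 3392 to 1321 CPM in the KO-labelled libraries. Mean *Cd3d* went from 1549 to 1575 CPM and from 1427 to 1462 CPM, and the means of the others fell in both genotypes. Of other cell types, 8 myeloid markers summed to 7.51 to 14.0 CPM at day 0 and to 3.53 to 5.30 CPM at day 5, with *S100a9* at 0 in every library. The 6 platelet markers summed to at most 0.918 CPM, with *Gp1bb* at 0 in every library. The 5 dendritic cell markers summed to 4.06 to 12.8 CPM, and 6 B-cell markers to 67.6 to 168 CPM, nearly all of it *Cd79b*. The 4 natural killer markers summed to 11.4 to 17.6 CPM at day 0 and 38.2 to 54.3 CPM at day 5. The rise was that of *Eomes*, while *Ncr1*, *Klrb1c* and *Tyrobp* were each at or below 0.964 CPM in every library. In bulk samples, fewer cells of a type and less RNA per cell cannot be told apart.

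Levels of different genes were compared as CPM per kilobase of exon, which corrects for gene length. The T-cell adhesion receptor *Cd2*, the shared leukocyte beta chain *Itgb2* and the selectin ligand *Selplg* held the first 3 places in all 4 groups. *Cd2* stood at 1144 CPM per kb in WT at day 0 and 1459.8 CPM per kb at day 5, *Itgb2* at 365 and 311, and *Selplg* at 277 and 241. The ranges of *Itgb2* and *Selplg* over the 2 libraries of a group did not overlap in any of the 4 groups. The order of the 2 genes turned round when the longest transcript was used as the length. Below them, *Itgal*, the alpha chain of LFA-1, was 5th or 6th at day 0 and 4th at day 5. *Icam2*, an LFA-1 ligand that T cells also carry, was 4th at day 0 and 14th or 13th at day 5. *Cd44*, the hyaluronan receptor of activated T cells, moved the other way, from 22nd or 23rd to 12th or 10th.

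**Figure D1:**
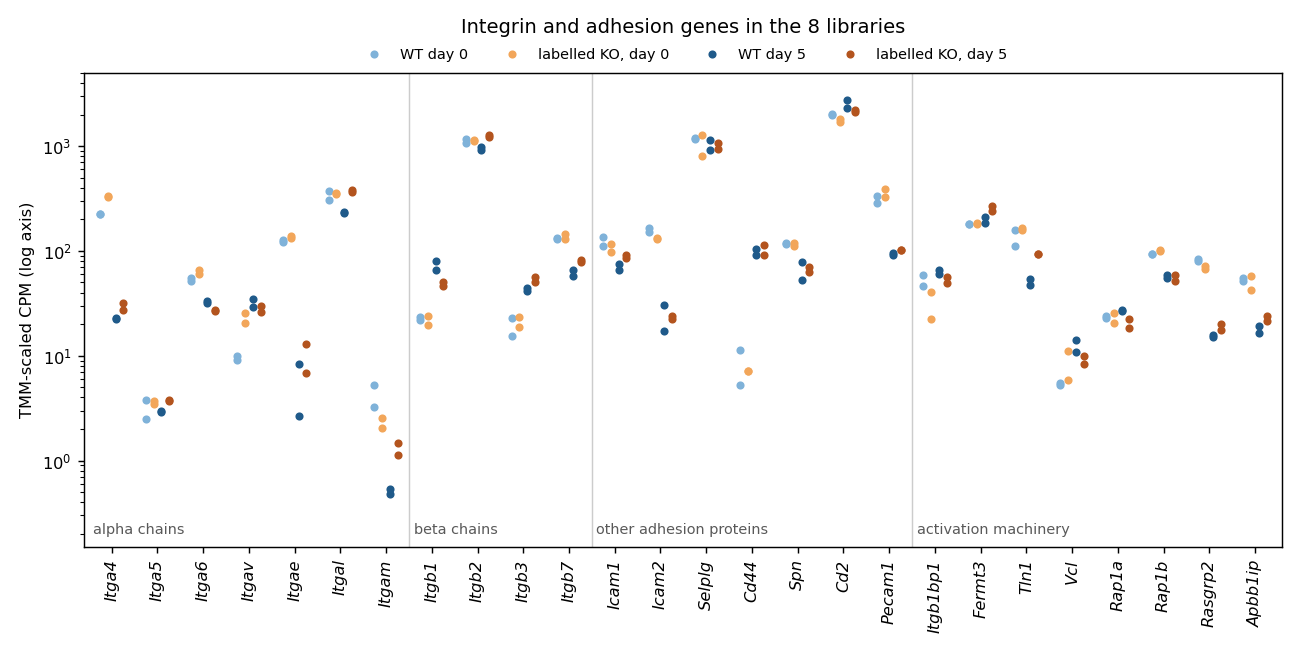
Level of the 26 tested genes in each of the 8 libraries, in TMM-scaled CPM on a log axis, with 1 point per library and vertical lines between the 4 roles. Day 0 and day 5 points lie apart for *Itga4*, *Itgae*, *Icam2* and *Cd44*, and *Itgb2*, *Selplg* and *Cd2* stand highest, at 808 CPM or more.

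Among the 7 alpha chains tested, *Itgal* took a larger share of the summed level per kb at day 5 than at day 0. Its share was 47.7% and 52.2% in WT at day 0 and 45.7% and 46.0% in the KO-labelled libraries. By day 5 it was 76.2% and 79.3% in WT and 85.5% and 82.3% in the KO-labelled libraries. No day 5 library overlapped a day 0 library. *Itgae* made up a mean of 26.4% of the alpha chain level in WT and 25.3% in the KO-labelled libraries at day 0, and 2.60% and 3.19% at day 5. *Itga4* went from 15.7% to 3.59% in WT and from 20.1% to 3.12% in the KO-labelled libraries. Among the 4 beta chains tested, *Itgb2* held between 86.0% and 89.4% in every library. *Itgb1*, the partner of the most alpha chains, rose in share from 1.32% to 5.02% in WT and from 1.26% to 2.58% in the KO-labelled libraries, and *Itgb7* went from 11.3% to 6.19% and from 11.6% to 6.26%. These shares are descriptions of RNA and carry no test. A share rises when other chains fall, and *Itgal* itself did not rise in CPM in WT.

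**Figure D2:**
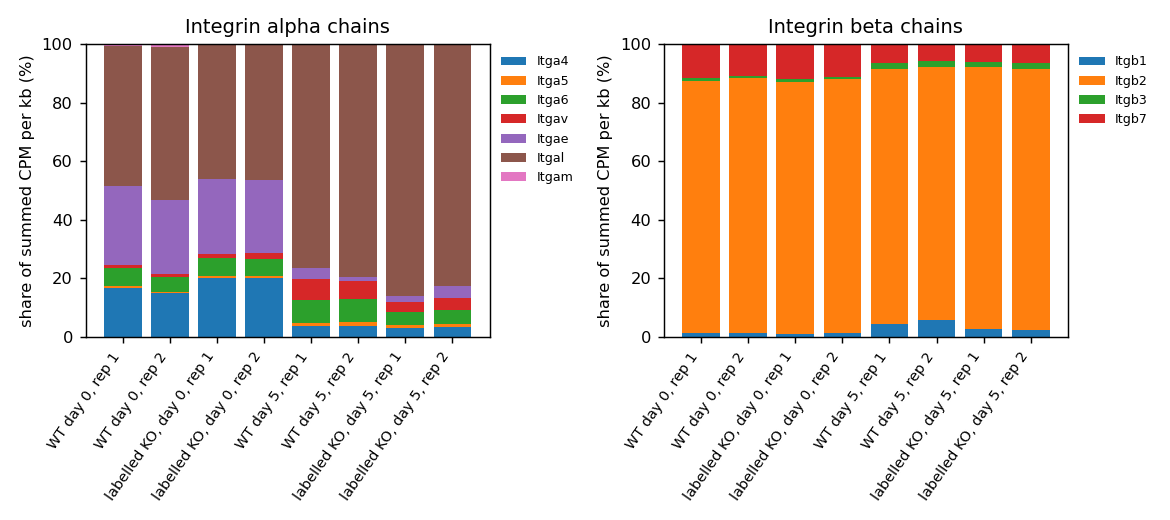
Share of each tested chain in the summed CPM per kb of the 7 alpha chains (left) and the 4 beta chains (right), 1 bar per library. *Itgal* fills most of each day 5 alpha chain bar, while *Itgae* and *Itga4* fill much of the rest at day 0, and *Itgb2* fills most of every beta chain bar.

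The first comparison asked how these genes changed over 5 days of culture in each genotype. In WT, 6 of the 26 tested genes rose and 14 fell at FDR under 0.05. This is 76.9% of them, beside 48.3% of all tested genes (24.7% higher and 23.6% lower). The 14 and the median below include *Itgam*, which passed the filter on low counts through its day 0 level. In the KO-labelled libraries, 6 rose and 11 fell, which is 65.4%, beside 50.2% of all tested genes (26.2% higher and 24% lower). The median log2 fold change of the 26 was −0.62 in WT and −0.23 in the KO-labelled libraries, beside −0.04 and −0.05 over all tested genes. A change was called in both genotypes for 15 genes, all with the same sign: 4 rose and 11 fell. The share of all tested genes called in both was not counted, so nothing is read from that number. With 2 libraries a group, days also lay apart without overlap in genes not called, such as *Itgb2* in WT. Lack of overlap is therefore given as description only.

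*Itgae* and *Itga4* had the lowest log2 fold changes of the 26 genes in both genotypes. *Itga4* was at 227 and 224 CPM in WT at day 0 and at 333 and 328 CPM in the KO-labelled libraries. At day 5 it was at 23.1 and 22.4 CPM in WT and at 27.2 and 31.6 CPM in the KO-labelled libraries. All 4 day 5 libraries thus lay far below all 4 day 0 libraries. The fall was 9.90-fold in WT (log2 fold change −3.31, SE 0.14, FDR 1.87e-09) and 11.2-fold in the KO-labelled libraries (−3.49, SE 0.14, FDR 7.99e-10). *Itgae*, known as CD103 and a mark of epithelium-resident CD8+ T cells, was at 122 and 126 CPM in WT at day 0 and at 139 and 133 CPM in the KO-labelled libraries. By day 5 it was at 8.29 and 2.65 CPM in WT and at 6.81 and 12.9 CPM in the KO-labelled libraries. These day 5 values differed up to several-fold between replicates but stayed well under every day 0 value. The log2 fold change of *Itgae* was −4.43 (SE 0.34, FDR 3.99e-07) in WT and −3.79 (SE 0.31, FDR 6.92e-07) in the KO-labelled libraries, and the WT value was −5.52 without replicate 1 of WT at day 5. *Itga6*, a laminin-binding chain, was at 54.6 and 51.1 CPM in WT and 66.4 and 60.2 CPM in the KO-labelled libraries at day 0. It was at 33 and 32.0 CPM and at 26.9 and 27.5 CPM at day 5. The WT and KO-labelled values therefore changed places, with log2 fold changes of −0.70 (SE 0.16, FDR 0.00324) in WT and −1.22 (SE 0.16, FDR 4.26e-05) in the KO-labelled libraries. The difference between these 2 changes was −0.52 (SE 0.23, FDR 0.372).

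*Itgav*, *Itgal* and *Itgam* passed the test in WT only. *Itgav*, whose product pairs with β3 to bind vitronectin and with other beta chains to activate TGF-β, was at 9.84 and 9.04 CPM in WT at day 0 and at 35.1 and 29.2 CPM at day 5. This was a 3.40-fold rise (log2 fold change 1.77, SE 0.22, FDR 3.55e-05). In the KO-labelled libraries it was already at 20.4 and 25.3 CPM at day 0 and at 25.9 and 29.9 CPM at day 5 (log2 fold change 0.30, SE 0.20, FDR 0.235). *Itgal* was at 308 and 371 CPM in WT at day 0 and at 233 and 230.1 CPM at day 5 (log2 fold change −0.55, SE 0.12, FDR 0.00277). Without replicate 2 of WT at day 0 the FDR of *Itgal* was 0.0532. Among the KO-labelled libraries it was at 358 and 351 CPM at day 0 and at 381 and 362 CPM at day 5 (log2 fold change 0.07, SE 0.12, FDR 0.666). *Itgam*, the alpha chain of Mac-1, had 41 counts over both WT libraries at day 0 and 5 at day 5. The ratio was 8.04 with a 95% counting interval of 3.18 to 26.1. In the KO-labelled libraries it had 38 and 14 counts (ratio 1.70, interval 0.901 to 3.40). It passed the filter through its day 0 level, 68.7% of its exon length is shared with the same-strand gene *Gm49368*, and the part of myeloid cells in its values was not tested. *Itga5*, a fibronectin receptor chain, was between 2.49 and 3.79 CPM in all 8 libraries, and no change was called.

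The beta chains went in different directions. *Itgb1* was at 23.6 and 21.7 CPM in WT at day 0 and at 65.4 and 80.5 CPM at day 5. Among the KO-labelled libraries it was at 19.8 and 24.0 CPM and then at 50.8 and 46.0 CPM. The rise was 3.21-fold in WT (log2 fold change 1.68, SE 0.19, FDR 1.19e-05) and 2.22-fold in the KO-labelled libraries (1.15, SE 0.18, FDR 0.000212), with no overlap between days. *Itgb1* thus rose while *Itga4* and *Itga6*, which encode partners of its product, fell. *Itgb3*, the main partner chain of αv on T cells, was at 23.1 and 15.4 CPM in WT at day 0 and at 44.3 and 41.2 CPM at day 5. It was at 23.3 and 18.7 CPM and then at 50.4 and 56.0 CPM in the KO-labelled libraries. Its log2 fold changes were 1.14 (SE 0.22, FDR 0.000875) in WT and 1.33 (SE 0.21, FDR 0.000186) in the KO-labelled libraries. Platelets also carry β3, the platelet markers were at or near 0 as given above, and the part of platelets in the *Itgb3* values was not tested. *Itgb7*, the partner of α4 and αE, was at 131 and 131 CPM in WT and 144 and 131 CPM in the KO-labelled libraries at day 0. At day 5 it was at 65.3 and 57.6 CPM and at 78.4 and 81.2 CPM. Each day 5 library was below each day 0 library, with log2 fold changes of −1.09 (SE 0.14, FDR 3.07e-05) and −0.79 (SE 0.13, FDR 0.000333). *Itgb2* stayed between 916 and 1271 CPM in the 8 libraries and no culture change was called, with log2 fold changes of −0.23 (SE 0.10, FDR 0.0828) in WT and 0.15 (SE 0.10, FDR 0.237) in the KO-labelled libraries. Its WT value was called lower under library-total scaling (−0.37, FDR 0.00532) and with an offset that adjusts for GC content and length of the exons (−0.40, FDR 0.00644).

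Of the other adhesion proteins, *Cd44* changed the most. It was at 11.3 and 5.20 CPM in WT and at 7.21 and 7.16 CPM in the KO-labelled libraries at day 0. By day 5 it was at 90.5 and 103 CPM and at 91.4 and 113 CPM. The genotypes overlapped at each day and the days lay far apart. The rise was 11.5-fold in WT (log2 fold change 3.52, SE 0.27, FDR 3.73e-07) and 14.2-fold in the KO-labelled libraries (3.82, SE 0.26, FDR 1.20e-07). Without replicate 1 of WT at day 0, the higher of the pair, the WT log2 fold change was 4.22. *Icam2* was at 152 and 166 CPM in WT and 131 and 134 CPM in the KO-labelled libraries at day 0, and at 30.2 and 17.1 CPM and at 22.4 and 23.9 CPM at day 5. It fell in both (log2 fold change −2.73, SE 0.21, FDR 4.41e-07 in WT, and −2.51, SE 0.21, FDR 7.69e-07). *Pecam1*, a homophilic receptor also called CD31 that naive T cells carry, was at 337 and 285 CPM in WT and 393 and 329 CPM in the KO-labelled libraries at day 0. At day 5 it was at 96.3 and 91.3 CPM and at 102 and 102 CPM. No library of one day reached the range of the other, and the log2 fold changes were −1.73 (SE 0.14, FDR 6.54e-07) and −1.83 (SE 0.14, FDR 3.25e-07). *Spn*, the sialomucin CD43, fell from 119 and 117 CPM to 78.8 and 52.3 CPM in WT and from 120 and 112 CPM to 70.1 and 63.4 CPM in the KO-labelled libraries. *Icam1*, a ligand of LFA-1, fell in WT from 111 and 136 CPM to 75.3 and 65.1 CPM. In the KO-labelled libraries *Icam1* was at 116 and 97.3 CPM and then at 90.5 and 85.2 CPM, and no change was called (FDR 0.145), but library-total scaling (−0.47, FDR 0.0179) and the GC content and exon length offset (−0.58, FDR 0.00782) called it lower there too. *Cd2* was at 1977 and 2007 CPM and then 2785 and 2298 CPM in WT, and at 1688 and 1822 CPM and then 2234 and 2095 CPM in the KO-labelled libraries. Its rise was small (log2 fold change 0.35 and 0.30) and was not called under library-total scaling. In WT the call was also lost in a fit of the 4 compared libraries alone (0.37, FDR 0.0554). In the KO-labelled libraries it was lost without the filter on low counts (0.27, FDR 0.119). Leaving out 1 library also ended it: in WT, replicate 1 or 2 of WT at day 0 or replicate 1 of WT at day 5, and in the KO-labelled libraries, replicate 1 or 2 of WT at day 0, of KO at day 0 or of KO at day 5 (highest FDR 0.104 and 0.201). Under the GC content and exon length offset it was 0.03 in WT (FDR 0.832) and turned to −0.10 in the KO-labelled libraries (FDR 0.479). *Selplg*, the PSGL-1 backbone that binds P-selectin once glycosylated, was between 808 and 1263 CPM in the 8 libraries, with no change called.

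Several genes of the activation machinery fell, and talin was among them. *Rasgrp2*, the exchange factor CalDAG-GEFI that loads Rap1, was at 83.0 and 79.4 CPM in WT and 72.1 and 67.5 CPM in the KO-labelled libraries at day 0, and at 15.7 and 14.9 CPM and at 17.7 and 20.1 CPM at day 5. The log2 fold changes were −2.40 (SE 0.17, FDR 2.15e-07) and −1.89 (SE 0.17, FDR 1.23e-06). *Apbb1ip*, which encodes RIAM, the adaptor between Rap1 and talin, was at 51.9 and 54.7 CPM and at 57.6 and 42.0 CPM at day 0, and at 16.6 and 19.3 CPM and at 23.9 and 21.2 CPM at day 5. In both genes every day 5 library lay below every day 0 library. The log2 fold changes of *Apbb1ip* were −1.58 (SE 0.20, FDR 4.32e-05) and −1.15 (SE 0.20, FDR 0.000360). *Tln1*, talin itself, was at 111 and 159 CPM in WT and 158 and 164 CPM in the KO-labelled libraries at day 0. By day 5 it was at 54.1 and 47.0 CPM in WT and at 93.6 and 93.3 CPM in the KO-labelled libraries. WT libraries were the lowest at day 5, and the log2 fold changes were −1.41 (SE 0.17, FDR 2.64e-05) and −0.78 (SE 0.16, FDR 0.00167). *Rap1b* fell from 93.9 and 93.6 CPM to 58.6 and 55.4 CPM in WT and from 102 and 99.6 CPM to 58.9 and 51.5 CPM in the KO-labelled libraries. *Rap1a* stayed between 18.6 and 27.5 CPM with no call. Both Rap1 genes have pseudogene copies, and their counts are uncertain to the extent that reads aligning in several places were set aside.

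*Vcl* was called higher in WT only, and *Fermt3* and *Itgb1bp1* in the KO-labelled libraries only. *Vcl*, the actin linker vinculin, was at 5.54 and 5.20 CPM in WT at day 0 and at 10.9 and 14.2 CPM at day 5 (log2 fold change 1.21, SE 0.35, FDR 0.0125), and the call was lost without either WT day 0 library or without replicate 2 of WT at day 5 (highest FDR 0.0663). Among the KO-labelled libraries it was at 11.1 and 5.87 CPM and then at 8.28 and 9.85 CPM, which overlap. On the opposite strand, *Ap3m1* covers 25.5% of its exon length, and the strand setting of the counting is not given in the sources used here. *Fermt3*, the kindlin of blood cells, was at 179 and 182 CPM in WT and 186 and 179 CPM in the KO-labelled libraries at day 0. It was at 183 and 209 CPM and at 239 and 266 CPM at day 5, and the change was called in the KO-labelled libraries (0.47, SE 0.12, FDR 0.00724) and not in WT (0.12, SE 0.12, FDR 0.470), where it was called with the GC content and exon length offset (0.33, FDR 0.0448). *Itgb1bp1*, which encodes ICAP-1, an inhibitor that competes for the β1 tail, was at 46.5 and 59.2 CPM and then 60.0 and 66.0 CPM in WT. It was at 40.1 and 22.6 CPM and then 56.1 and 49.8 CPM in the KO-labelled libraries, where the change was called (0.73, SE 0.24, FDR 0.0211). Library-total scaling ended the calls of both *Fermt3* (FDR 0.0796) and *Itgb1bp1* (FDR 0.0692), and so did leaving out replicate 2 of KO at day 5 for *Fermt3* (FDR 0.0873) and replicate 2 of KO at day 0 (FDR 0.143) or replicate 1 of KO at day 5 (FDR 0.112) for *Itgb1bp1*. The GC content and exon length offset ended the call of *Itgb1bp1* too. Library-total scaling moves the median of all tested genes to −0.17 in WT and −0.23 in the KO-labelled libraries.

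**Figure D3:**
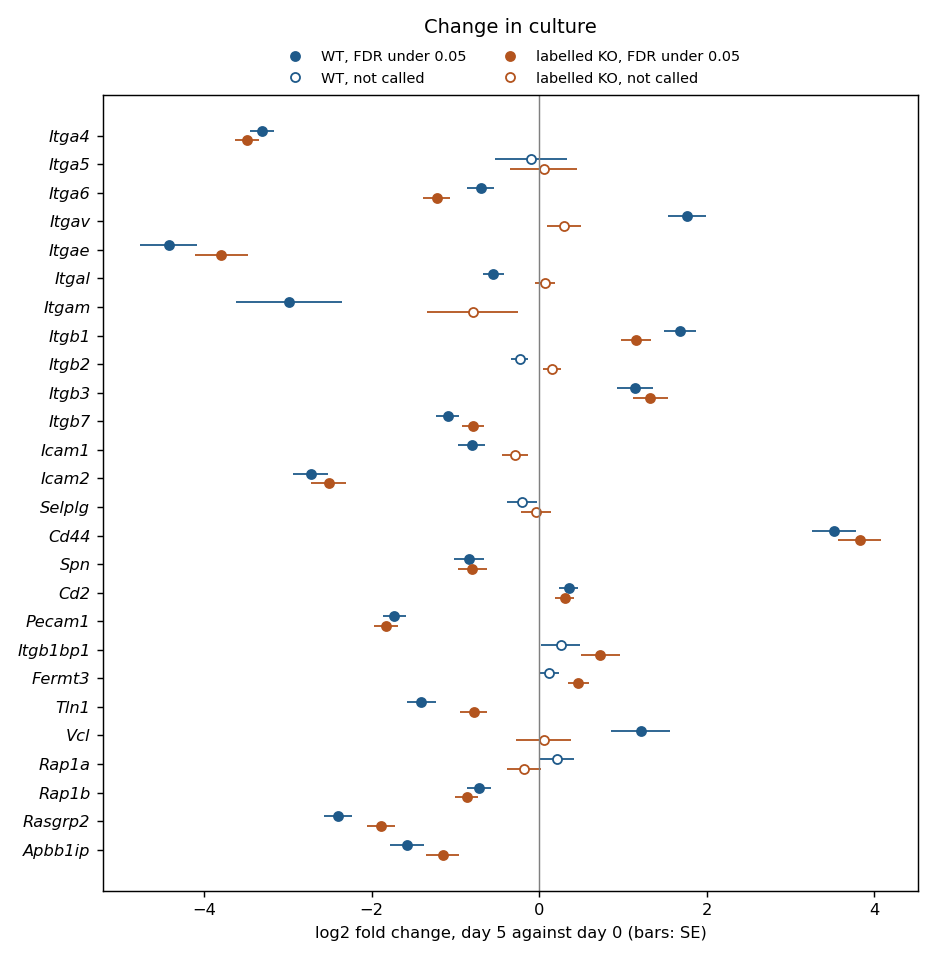
Log2 fold change of day 5 against day 0 (horizontal axis) for the 26 tested genes in WT (blue) and in the KO-labelled libraries (brown). Bars are SE, and filled points are FDR under 0.05. *Itga4*, *Itgae* and *Icam2* lie far to the left and *Cd44* far to the right in both, whereas *Itgav*, *Itgal* and *Vcl* have filled points in WT only.

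The other 7 genes did not pass the filter on low counts. *Itgax*, the alpha chain of dendritic cells and some activated T cells, had 6, 0, 7 and 12 counts in the 4 day 0 libraries (WT first) and 0 in all 4 at day 5. Without the filter *Itgax* was called lower over culture in the KO-labelled libraries (log2 fold change −6.01, FDR 0.00494). Leaving out replicate 1 or 2 of WT or replicate 1 of KO at day 0 let it pass the filter, again with a call of lower (−5.98, −6.02 and −6.51). It passed there through its day 0 counts, which favours a fall, so nothing is read from these calls. A floor of 3 counts corresponds to between 0.529 and 0.723 CPM in the day 5 libraries. *Itga2b*, the platelet alpha chain, had at most 15 counts in a library, and *Itga1*, *Itgad* and *Itgb5* had at most 1, 2 and 9. *Itga2*, a collagen receptor chain, had 3 and 1 counts in WT and 15 and 7 in the KO-labelled libraries at day 0, and 2 and 1 in WT and 12 and 6 in the KO-labelled libraries at day 5. *Itga3* had 3, 3, 21 and 5 counts at day 0 and 1, 1, 2 and 6 at day 5. The 21 counts came from the deepest library.

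Promoter windows of 300 bases, from 250 before to 50 after the start of a gene, were held by the RefSeq table (GRCm38.p6) for 22 of the 33 genes, in 24 windows. They are shown for 4 genes because these moved in both genotypes or between genotypes: *Itga4* (chr2:79255176-79255475, + strand) and *Itgb7* (chr15:102231886-102232185, − strand), whose products pair and which fell together, and *Cd44* (chr2:102901616-102901915, − strand) and *Itgav* (chr2:83724147-83724446, + strand), which rose in WT. Each is written 5′ to 3′ on the strand of the gene. Capitals mark, on either strand, the Runx core TGTGGT, the GC box GGGCGG and the Ets core CGGAAG.
Itga4: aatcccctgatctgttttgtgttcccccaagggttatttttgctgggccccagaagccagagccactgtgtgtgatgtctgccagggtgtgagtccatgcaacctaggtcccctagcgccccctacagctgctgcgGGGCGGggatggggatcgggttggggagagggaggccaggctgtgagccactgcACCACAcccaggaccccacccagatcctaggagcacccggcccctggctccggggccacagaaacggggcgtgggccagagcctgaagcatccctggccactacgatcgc
Itgb7: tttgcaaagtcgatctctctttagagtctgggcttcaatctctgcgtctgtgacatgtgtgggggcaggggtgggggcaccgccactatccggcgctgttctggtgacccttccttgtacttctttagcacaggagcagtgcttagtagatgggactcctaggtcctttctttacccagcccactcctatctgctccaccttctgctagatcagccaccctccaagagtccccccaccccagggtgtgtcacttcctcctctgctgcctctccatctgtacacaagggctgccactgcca
Cd44: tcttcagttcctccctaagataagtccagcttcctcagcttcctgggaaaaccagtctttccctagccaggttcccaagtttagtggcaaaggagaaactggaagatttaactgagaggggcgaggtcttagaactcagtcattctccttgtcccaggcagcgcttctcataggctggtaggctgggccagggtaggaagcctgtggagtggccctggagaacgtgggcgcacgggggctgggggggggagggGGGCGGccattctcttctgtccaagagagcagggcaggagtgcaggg
Itgav: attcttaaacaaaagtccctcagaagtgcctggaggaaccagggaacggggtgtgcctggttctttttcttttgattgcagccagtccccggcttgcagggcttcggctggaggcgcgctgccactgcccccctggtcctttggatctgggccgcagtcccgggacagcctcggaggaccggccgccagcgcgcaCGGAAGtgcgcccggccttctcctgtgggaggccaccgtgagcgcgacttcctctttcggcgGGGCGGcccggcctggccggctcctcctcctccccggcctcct
The *Itga4* window held 1 Runx match, on the reverse strand, and 1 GC box, and the *Cd44* window held 1 GC box. The *Itgav* window held 1 Ets match and 1 GC box, and the *Itgb7* window held none of the motifs. The Runx letters were found in 4 of the 24 windows and in 16.8% of 32851 promoter windows of the same length, the Ets letters in 6 and in 16.9%, and the GC box in 15 and in 35.7%. AT content was 35.7% in the *Itga4* window, 43.7% in *Itgb7*, 42.0% in *Cd44* and 32.7% in *Itgav*. The median was 41.7% over the 24 windows of these genes and 47.3% over all windows. SATB1 is known for binding AT-rich DNA, and its binding was not tested. A letter match is not a bound site.

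The second comparison asked which of these genes differed between genotypes before culture. At day 0, 2 of the 26 tested genes were called, *Itga4* and *Itgav*, both higher in the KO-labelled libraries, beside 1.8% of all tested genes called in either direction and 0.913% called higher. *Itga4* (chr2:79255426-79333123, + strand, GRCm38) was at 333 and 328 CPM against 227 and 224 CPM, a 1.47-fold difference (log2 fold change 0.55, SE 0.12, FDR 0.0395). *Itgav* (chr2:83724397-83806916, + strand) was at 20.4 and 25.3 CPM against 9.84 and 9.04 CPM, a 2.40-fold difference (log2 fold change 1.26, SE 0.22, FDR 0.0135). In both genes both KO-labelled libraries lay above the 2 WT libraries with no overlap. The genotypes also did not overlap in genes that were not called, among them *Itga6*, *Icam2* and *Cd2*. The products of *Itga4* and *Itgav* pair with β1, β7 and β3, and the genes of these partners had log2 fold changes of −0.06 (*Itgb1*, SE 0.19), 0.07 (*Itgb7*, SE 0.13) and 0.13 (*Itgb3*, SE 0.22), none of them called. The other 24 log2 fold changes ran from −0.87 for *Itgam* to 0.69 for *Vcl*, and a p under 0.05 before adjustment was reached by 3 of the 26, beside 13.8% of all tested genes. The call of *Itga4* was lost with the GC content and exon length offset (0.35, FDR 0.215), without any 1 of the 4 day 0 libraries (FDR 0.0887 to 0.278) and without replicate 1 or 2 of KO at day 5 (FDR 0.0846 and 0.0856), and that of *Itgav* without replicate 1 or 2 of WT at day 0 (FDR 0.131 and 0.146).

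After 5 days of culture a different pair of genes was called. *Itgal* and *Tln1* were higher in the KO-labelled libraries, 2 of 26 tested, beside 1.63% of all tested genes called in either direction and 1.31% called higher. *Itgal* (chr7:127296260-127335138, + strand) was at 381 and 362 CPM in the KO-labelled libraries and at 233 and 230.1 CPM in WT, a 1.60-fold difference (log2 fold change 0.68, SE 0.12, FDR 0.0165). *Tln1* (chr4:43531519-43562691, − strand) was at 93.6 and 93.3 CPM against 54.1 and 47.0 CPM, a 1.84-fold difference (0.88, SE 0.17, FDR 0.0239). The groups did not overlap in either gene, and the KO-labelled values of *Itgal* at day 5 were close to the day 0 values of both genotypes. Lack of overlap was also seen in genes not called, such as *Itgb3*, *Icam1* and *Pecam1*. *Itgb2*, the partner of *Itgal* in LFA-1, was at 1271 and 1234 CPM against 979 and 916 CPM (log2 fold change 0.40, SE 0.10, FDR 0.0803). Its difference was not called in edgeR and was called by DESeq2 (FDR 0.0204). *Fermt3* was at 239 and 266 CPM against 183 and 209 CPM (0.36, SE 0.12, FDR 0.183) and *Itgb7* at 78.4 and 81.2 CPM against 65.3 and 57.6 CPM (0.37, SE 0.14, FDR 0.221). *Itgb1* had the lowest estimate, at 50.8 and 46.0 CPM against 65.4 and 80.5 CPM (−0.59, SE 0.18, FDR 0.133). *Itga4* was at 27.2 and 31.6 CPM against 23.1 and 22.4 CPM (0.37, SE 0.15, FDR 0.273) and *Itgav* at 25.9 and 29.9 CPM against 35.1 and 29.2 CPM (−0.21, SE 0.20, FDR 0.717). At an unadjusted p under 0.05 stood 7 of the 26 genes, beside 14.1% of all tested genes.

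**Figure D4:**
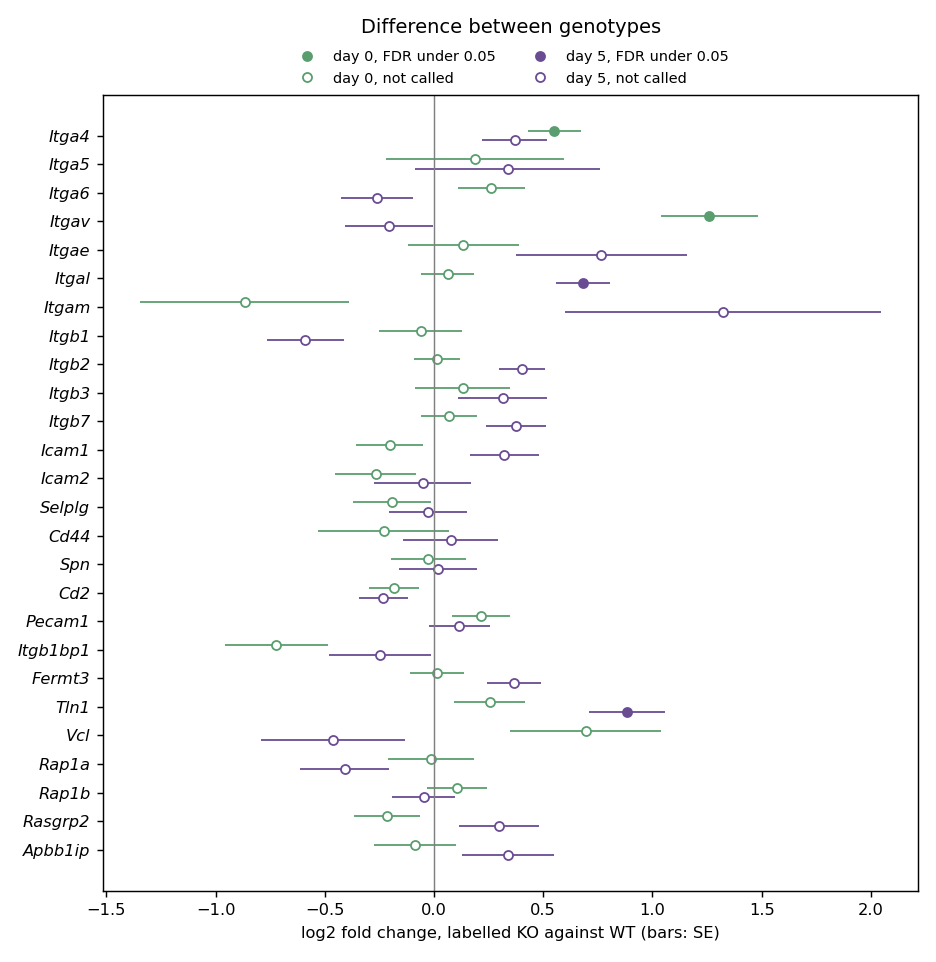
Log2 fold change of the KO-labelled libraries against WT (horizontal axis) for the 26 tested genes at day 0 (green) and day 5 (purple). Bars are SE, and filled points are FDR under 0.05. Filled points are *Itga4* and *Itgav* at day 0 and *Itgal* and *Tln1* at day 5.

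Both day 5 calls were lost with the GC content and exon length offset (*Itgal* 0.50, FDR 0.0809, and *Tln1* 0.63, FDR 0.102) and without replicate 2 of WT at day 5, replicate 1 of KO at day 5 or replicate 2 of KO at day 5 (FDR 0.0632 to 0.151 for *Itgal* and 0.122 to 0.197 for *Tln1*). The GC content of their exons is 53.2% for *Itgal*, 57.0% for *Tln1*, 53.1% for *Itgb2* and 57.5% for *Fermt3*, against a median of 49.0% over tested genes. The part of GC content in these differences was not tested beyond that offset.

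**Figure D5:**
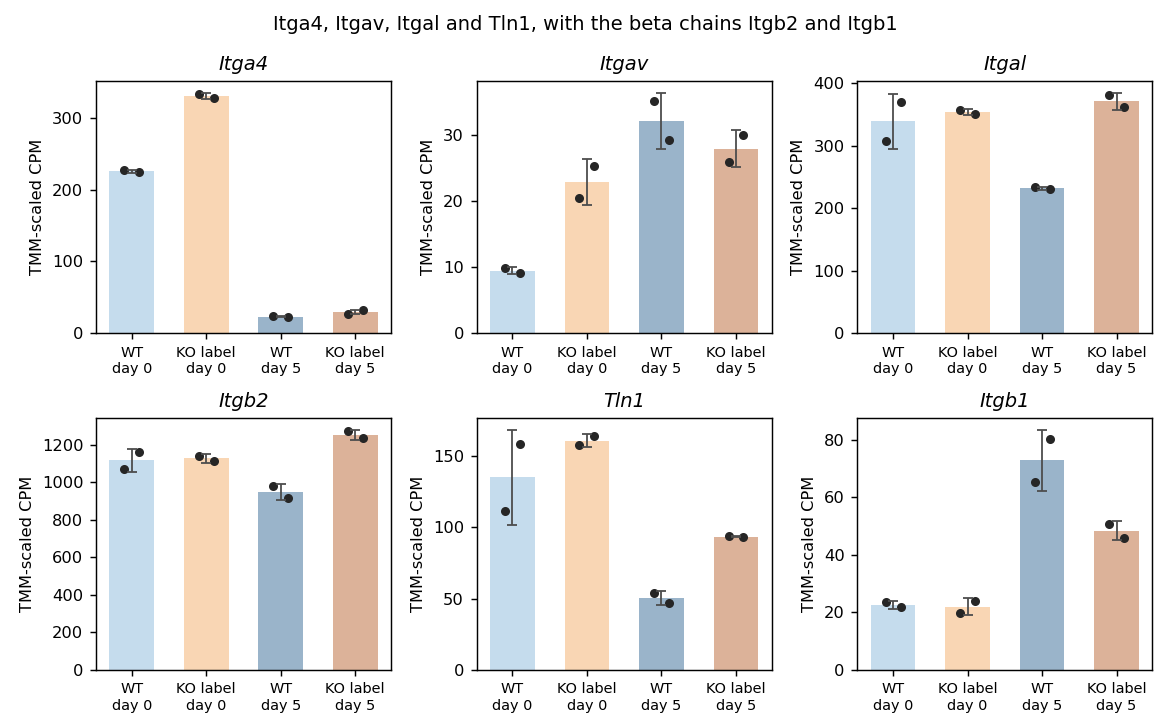
TMM-scaled CPM of 6 genes by group. Points are libraries, bars start at 0 and give the group mean, and error bars are SD (n = 2). The day 0 gap of *Itga4* and *Itgav* and the day 5 gap of *Itgal* and *Tln1* exceed the spread within groups, while *Itgb1* rises in both genotypes.

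The third comparison asked whether the culture response differed between genotypes, by the genotype by day interaction. With the filter on low counts, edgeR called none of the 26 tested genes, beside 0.159% of all tested genes. At an unadjusted p under 0.05 stood 9 of the 26, beside 12.4% of all tested genes, and *Itgav* was called by DESeq2 (FDR 0.0222) and by edgeR without the filter (FDR 0.0191). The *Itgav* rise in culture was smaller in the KO-labelled libraries by 1.47 on the log2 scale (interaction −1.47, SE 0.30, FDR 0.0876). *Itgal* and *Tln1* had interactions of 0.62 (SE 0.17, FDR 0.190) and 0.63 (SE 0.24, FDR 0.321), and *Vcl* of −1.16 (SE 0.48, FDR 0.349). *Itgal*, *Itgam*, *Icam1*, *Vcl*, *Fermt3* and *Itgb1bp1* had a culture call in one genotype and not in the other. For these genes that was therefore not shown to be a difference between genotypes. For *Itgav* the call of the difference depended on the tool and the filter. All 5 comparisons draw on the same 8 libraries, and the comparisons that share a group are not independent.

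Beside these genes, 86 other genes of the adhesion pathway were read in 5 lists, of which 70 were tested. Of 24 genes that control Rap1 and its effectors, all tested, 1 rose and 9 fell in WT and 1 rose and 11 fell in the KO-labelled libraries over culture. The falls are 37.5% and 45.8% of the list, beside 23.6% and 24% of all tested genes, and the rise is 4.17% each time, beside 24.7% and 26.2%. The KO-labelled falls include *Sipa1l3*, named after its values were seen, which had at most 11 counts in a day 5 library and passed the filter through its day 0 level. *Rapgef6*, an exchange factor for Rap, fell from 822 and 840.0 CPM to 332 and 358 CPM in WT and from 873 and 789 CPM to 329 and 328 CPM in the KO-labelled libraries (log2 fold change −1.27, SE 0.11, FDR 1.59e-06, and −1.34, SE 0.11, FDR 8.33e-07). *Dock2*, which activates Rac in lymphocytes, fell in both as well and was the only one of the 24 called between genotypes. At day 5 *Dock2* was at 564 and 505 CPM in the KO-labelled libraries and at 356 and 309.9 CPM in WT (0.68, SE 0.12, FDR 0.0165), and the call was lost when replicate 2 of WT, replicate 1 of KO or replicate 2 of KO at day 5 was left out (highest FDR 0.156) and in a fit of the 4 day 5 libraries alone (FDR 0.0503). *Prkd2*, a protein kinase D, had log2 fold changes over culture of −1.15 (SE 0.19, FDR 0.000312) in WT and −1.34 (SE 0.19, FDR 7.25e-05) in the KO-labelled libraries. The 1 gene that rose was *Rapgef3*, a cyclic AMP-dependent exchange factor at under 10 CPM, named after its value was seen, and it passed the filter through its day 5 level (at most 4 counts in a day 0 library).

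Adaptors that join integrins to actin were tested for 20 of 24 genes. In WT 1 rose and 11 fell, and in the KO-labelled libraries 4 rose and 8 fell, which is 60% of the tested adaptors each time, beside 48.3% and 50.2% of all tested genes. The falls of both genotypes include *Tgfb1i1*, named after its values were seen, which had at most 19 counts in a day 0 library and 1 at day 5 and passed the filter through its day 0 level. *Actn1*, the actin crosslinker alpha-actinin 1, fell from 237 and 270.2 CPM to 7.41 and 6.27 CPM in WT and from 246 and 224 CPM to 9.93 and 11.5 CPM in the KO-labelled libraries (log2 fold change −5.20, SE 0.18, FDR 3.32e-10, and −4.45, SE 0.17, FDR 5.17e-10). *Flna*, filamin A, which competes with talin for beta chain tails, fell by 1.52 (SE 0.20, FDR 4.59e-05) in WT and by 1.05 (SE 0.19, FDR 0.000636) in the KO-labelled libraries on the log2 scale. *Rsu1*, a partner of the ILK complex, rose in both (0.71, SE 0.13, FDR 0.000808, and 0.65, SE 0.13, FDR 0.00114). *Parvg*, the parvin of blood cells in the same complex, rose in the KO-labelled libraries from 224 and 198 CPM to 339.9 and 420.0 CPM, was at 259 and 203 CPM in WT at day 5, and was called between genotypes at day 5 (0.72, SE 0.15, FDR 0.0327). That genotype call was lost under 7 alternatives, among them the offset for GC content and each single omission of replicate 1 or 2 of WT at day 0, replicate 2 of WT at day 5 and replicate 1 or 2 of KO at day 5 (highest FDR 0.416). The other 2 that rose in the KO-labelled libraries were *Ilk* and *Actn4*, named after their values were seen.

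Ligands and membrane partners were tested for 14 of 20 genes, of which 4 rose and 6 fell in WT, and 5 rose and 7 fell in the KO-labelled libraries (71.4% and 85.7%, beside 48.3% and 50.2% of all tested genes). *Amica1*, the symbol in the files for the adhesion receptor JAML, rose from 137 and 142 CPM to 522 and 302 CPM in WT and from 153 and 129.9 CPM to 560.5 and 509 CPM in the KO-labelled libraries (log2 fold change 1.57, SE 0.21, FDR 4.84e-05, and 1.92, SE 0.21, FDR 8.04e-06). The tetraspanin *Cd81* rose as well (1.12, SE 0.31, FDR 0.0103 in WT, and 1.77, SE 0.30, FDR 0.000346), with the WT call lost without replicate 2 of WT at day 0 or at day 5 (highest FDR 0.140). *Cd6*, the receptor of ALCAM, fell in both (−2.25, SE 0.12, FDR 1.69e-08, and −1.61, SE 0.12, FDR 2.42e-07), and so did *Cd96*, a nectin receptor (−1.37, SE 0.11, FDR 9.08e-07, and −0.97, SE 0.11, FDR 1.53e-05), and *Cd226*, an LFA-1 partner (−0.52, SE 0.16, FDR 0.0160, and −1.10, SE 0.16, FDR 9.57e-05). Higher at day 0 in the KO-labelled libraries were *Cd48*, the mouse ligand of CD2, at 623 and 509 CPM against 329 and 292 CPM (0.87, SE 0.14, FDR 0.00665), and the tetraspanin *Cd37*, at 469 and 436 CPM against 292 and 308 CPM (0.59, SE 0.12, FDR 0.0243). Both calls were lost without replicate 1 or 2 of WT at day 0, and that of *Cd37* also without replicate 1 of KO at day 0 or at day 5 (highest FDR 0.146 and 0.254). *Cd6* was higher in the KO-labelled libraries at day 5, at 168 and 190.5 CPM against 106 and 103 CPM (0.77, SE 0.12, FDR 0.00778), and the call was lost without replicate 2 of KO at day 5 (FDR 0.151). The other genes that rose, named after their values were seen, were *Cd47* in both genotypes, *Cd48* in WT, and *Alcam* and *Cd151* in the KO-labelled libraries. *Cd48* rose in WT (0.37, SE 0.14, FDR 0.0429) and fell in the KO-labelled libraries (−0.69, SE 0.14, FDR 0.00112), and the interaction was not called (−1.06, SE 0.19, FDR 0.0565).

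The selectin system, which starts rolling before integrins act, moved in both directions. Of 9 genes tested of 10, 6 rose and 2 fell in each genotype (88.9%, beside 48.3% and 50.2% of all tested genes). Of the 6, *Fut4*, *Gcnt1*, *Cd24a* and *Chst2*, with at most 13 counts in a day 0 library and named after their values were seen, passed the filter through their day 5 level, so nothing is read from that share. *B4galt1*, a galactosyltransferase, fell in both (−0.39, SE 0.15, FDR 0.0459 in WT, a call lost under 13 alternatives that included 7 of the 8 single-library omissions, and −0.74, SE 0.15, FDR 0.00109). The highest FDR of that WT result was 0.232. Among enzymes that build selectin ligands, *St3gal6* was not called (WT −0.33, FDR 0.0686, and KO-labelled libraries 0.09, FDR 0.622). *Fut7*, the fucosyltransferase that makes sialyl Lewis x on PSGL-1, rose from 1.25 and 3.84 CPM to 33.7 and 31.1 CPM in WT and from 3.77 and 1.84 CPM to 38.3 and 32.4 CPM in the KO-labelled libraries (3.72, SE 0.39, FDR 7.46e-06, and 3.54, SE 0.35, FDR 3.95e-06). Its log2 fold change was 3.08 or 4.68 in WT without replicate 1 or 2 of WT at day 0, and 4.26 in the KO-labelled libraries without replicate 1 of KO at day 0. The sialyltransferase *St3gal4* rose from 5.37 and 9.50 CPM to 23.5 and 23.9 CPM in WT and from 8.15 and 6.97 CPM to 23.2 and 20.3 CPM in the KO-labelled libraries. Among the 8 integrin chains outside the main list, 3 were tested, of which *Itga7*, a laminin-binding chain, rose from 1.43 and 0.904 CPM to 10.4 and 12.8 CPM in WT and from 1.20 and 0.918 CPM to 19.5 and 25.4 CPM in the KO-labelled libraries (3.25, SE 0.39, FDR 2.23e-05, and 4.33, SE 0.35, FDR 6.11e-07). It had 8, 4, 14 and 5 counts in the day 0 libraries and passed the filter on low counts through its day 5 level. In the KO-labelled libraries the other 2, *Itga9* and *Itgb4*, rose too, both under 10 CPM, with at most 8 counts in a day 0 library, and named after their values were seen. They also passed the filter through their day 5 level.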

How the data were processed

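Per the labels, RNA of sorted CD8+ T cells was extracted with Trizol, made into libraries with an NEBNext Ultra RNA kit and sequenced on a HiSeq2500. The authors deposited unnormalized, unpooled read counts per gene symbol, 1 table per library, and the submitters' processing notes name HISAT2 2.1.0, HTSeq 0.11.1 and the build mm10 (GRCm38). The annotation and strand setting of the counting are not given in the sources used here. Summary lines of the counting program were left out, and counts assigned to genes made up 21.2% to 24.5% of the records of a library. Reads that aligned in several places were set aside by that program.

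Counts were tested with the edgeR 4.0.16 quasi-likelihood test (legacy form) in R 4.3.3, in a single fit of 8 libraries with 1 mean per group, TMM factors and the default filter (minimum count 10). The common biological coefficient of variation was 15.0%. Two-sided p-values underwent Benjamini-Hochberg adjustment over 12597 genes (FDR, called under 0.05), and a log2 fold change carries the SE of that fit. CPM values use TMM-scaled library sizes. Counting intervals and the floor of 3 counts cover counting error only. Lengths, GC content and coordinates came from GENCODE M21 (GRCm38), and 96.9% of tested genes had them.

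The gene lists were chosen with earlier results of these data known. All called genes of the main list are named, and of the other lists up to 2 called genes per direction and comparison with the largest change and at least 10 CPM in the higher group. One gene counted among the tested genes of those lists is not reported here. Alternatives were DESeq2 size factors, library totals, no filter, a minimum of 5 CPM in 2 libraries, a fit of the 4 compared libraries alone, the replicate number as a block, the newer edgeR form, DESeq2 1.42.0, a GC content and exon length offset (loess span 0.3), thinning to 4170126 counts and leaving out each library.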

Additional observations from a re-analysis of the deposited data

Results flagged for a closer look

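Named genes whose culture response differed between genotypes by the genotype by day interaction were taken up here. *Satb1* had an interaction of −1.34 (log2 scale, SE 0.21, edgeR quasi-likelihood test, FDR 0.0269), lost under the GC content and exon length offset and under 6 of the 8 single-library omissions: replicate 1 or 2 of WT at day 0, replicate 1 of KO at day 0, replicate 2 of WT at day 5, and replicate 1 or 2 of the KO day 5 group (highest FDR 0.230). Its level was above WT at day 0 and below WT at day 5 in the KO-labelled libraries.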

How the results depend on the processing

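The numbers of integrin and adhesion genes called over culture stayed within 1.5 times of 20 in WT (17 to 21) and of 17 in the KO-labelled libraries (15 to 17) under all alternatives. Between genotypes at day 0 the count was 2, and it was 1 with the replicate block (*Itga4* lost its call, FDR 0.0508), 1 with the GC content and exon length offset and 0 to 2 when 1 library was left out. Without replicate 1 of KO at day 0 the 2 were *Itgav* and *Itgb1bp1*, the latter lower (−1.23, FDR 0.0200). At day 5 it was 2, and it was 3 in DESeq2 (*Itgb2* added), 0 with the offset and 0 to 2 when 1 library was left out. For the interaction it was 0, and 1 without the filter on low counts and 1 in DESeq2. The cause was not tested. Of 772 alternative values for the called results of these genes plus *Itgb2* at day 5 and the *Itgav* interaction, 43 results in all, 726 kept direction and side of the threshold, 42 lost the call, 3 gained it and 1 reversed, *Cd2* in the KO-labelled libraries with the offset (−0.0959). Counting every comparison, 6 genes not called gained a call 13 times (*Itgax* 4, *Itgb2* 3, *Icam1* 2, *Itgav* 2, *Fermt3* and *Itgb1bp1* 1 each). Equal replicate numbers were not taken as pairs, since the labels name no shared animal or batch and each group holds 2 libraries. Deviations from group means correlated by 0.118 and 0.228 across days and by 0.00438 and −0.0165 across genotypes. Over all tested genes, the interaction count went from 20 to 154 without the filter, to 135 in DESeq2, to 12 with the offset and to between 0 and 41 when 1 library was left out. Day 0 genotype calls went from 227 to 434 without the filter and to between 38 and 276 when 1 library was left out, and day 5 calls from 205 to 418, to between 32 and 249, to 351 in DESeq2 and to 119 with the offset. Called higher and lower over culture were 3112 and 2969 genes in WT and 3296 and 3029 in the KO-labelled libraries, and 2668 and 3560, and 2755 and 3936, under library-total scaling. With the longest transcript as length, chosen after seeing the data, the mean share of *Itgal* in alpha chains was 47.8% and 43.4% at day 0 and 72.8% and 80.7% at day 5. With 2 libraries a group, small differences of low genes could not be resolved at this depth.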
